A study of Homo sapiens with 4 samples.

Results

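Ishikawa and HEC-1A, human endometrial adenocarcinoma cell lines, differed in the expression of 1755 of 18417 genes by at least 2-fold in both treatment conditions. Of these genes 1029 were higher in Ishikawa cells (5.59% of all genes) and 726 were higher in HEC-1A cells (3.94%). The genes apart included 25 of 51 listed genes of epithelial junctions, polarity and related factors, which were higher in Ishikawa cells. They also included the intermediate filament gene VIM and the transcriptional repressor gene ZEB1, which were higher in HEC-1A cells. The list of mesenchymal genes that holds VIM and ZEB1 was itself split, with 9 of 30 higher in HEC-1A cells and 6 higher in Ishikawa cells. Both lists were chosen with earlier results of these data known. CDH1, the gene of the epithelial adhesion molecule E-cadherin, was 64.7-fold higher in Ishikawa cells on average, and VIM was 24.2-fold higher in HEC-1A cells.

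The study asked what the ubiquitin ligase Efp, encoded by TRIM25, does in endometrial cancer, and each line was treated with a control siRNA (siControl) or an siRNA against Efp (siEfp). Of the 4 arrays, both lines contributed 1 with siControl and 1 with siEfp. Ishikawa cells came from a well-differentiated adenocarcinoma and are described as positive for estrogen receptor α, and HEC-1A cells came from a moderately differentiated one and are described as negative. The microarray methods cover only Ishikawa cells with siEfp #A, and the sources used here do not name the duplex or the duration for HEC-1A cells. Each line is a single established culture grown without the stroma and vessels of a tumor, so the arrays describe these cultures. All values are RMA signals on the log2 scale, on which a difference of 1 is a 2-fold change, and each Ishikawa array was set against the HEC-1A array of the same treatment. These are the siControl pair and the siEfp pair, and values below are given in the order siControl, siEfp. The members were the genes for which both pairs differed by at least 2-fold in the same direction. With 1 array per condition the agreement of the pairs is the only replication, so that precision is limited by how few arrays there are.

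Normal endometrial glands are lined by a polarized epithelium. Its cells are joined by cadherin-based adherens junctions, by claudins in tight junctions, by desmosomes and by gap junctions, and they are filled with the simple keratins KRT8, KRT18 and KRT19. Carcinoma cells can lose part of this apparatus and gain genes of mesenchymal cells, a shift in which repressors of the SNAI and ZEB families bind E-box sequences of epithelial genes. Estrogen receptor α, from ESR1, is the ligand-activated transcription factor through which estrogen acts on the gland.

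Markers of epithelial and Müllerian origin were present on all 4 arrays, but not to the same extent. KRT18 was at 11.92 and 11.56 in Ishikawa cells and at 11.77 and 11.73 in HEC-1A cells, with no consistent difference. PAX8, a transcription factor of the Müllerian epithelium, was at 10.34 and 10.46 in Ishikawa cells and at 10.17 and 9.88 in HEC-1A cells, which was not a 2-fold difference. Both lines thus carried a keratin and a lineage factor at high signals. KRT8 was at 12.44 and 12.28 in Ishikawa cells against 11.40 and 10.85, and KRT19 at 10.05 and 9.85 against 8.81 and 8.60, so that both passed 2-fold in both pairs. EPCAM, an adhesion molecule of epithelial cells, was at 11.24 and 11.24 in Ishikawa cells and at 7.26 and 7.05 in HEC-1A cells, 16.9-fold apart. CDH1 was at 10.22 and 9.62 in Ishikawa cells and at 4.07 and 3.74 in HEC-1A cells. The last values lie in the lowest 25% of all signals, which ended at 4.47, and the median of all signals was 6.30. KRT7, another simple keratin, was at 8.12 and 7.35 in Ishikawa cells and at 5.84 and 5.25 in HEC-1A cells, below the median there. Of 7 measured simple epithelial keratins 3 were higher in Ishikawa cells (42.9%, against 5.59% of all genes) and 0 in HEC-1A cells. The arrays labelled HEC-1A therefore had high KRT8, KRT18, KRT19 and PAX8 signals, a lower KRT7 signal and a CDH1 signal near the low end.

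Genes of other cell types stayed low. Of 14 stromal markers, 1 was higher in HEC-1A cells (ACTA2), and 12 were below the median signal on all arrays. Their summed signal was 63.0 to 63.3 in Ishikawa cells and 62.2 to 62.3 in HEC-1A cells. Of 8 endothelial markers 0 passed 2-fold, with sums of 32.6 to 33.9 and of 32.1 to 32.3, and of 14 immune markers 0 passed, with sums of 62.0 to 63.0 and of 64.3 on both HEC-1A arrays. The leukocyte gene PTPRC was between 2.90 and 3.17 and the matrix gene DCN between 2.79 and 2.96 on the 4 arrays. TRIM25 itself did not separate the lines, at 9.42 and 7.96 in Ishikawa against 9.50 and 7.93 in HEC-1A cells. The siEfp array of each line had the lower value of the targeted gene. On arrays of whole cultures, fewer cells with a transcript and less transcript per cell cannot be told apart.

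The line difference was much wider than the difference between treatments. Over all genes the SD of Ishikawa minus HEC-1A was 0.826 in the siControl pair and 0.818 in the siEfp pair, whereas siEfp minus siControl had an SD of 0.297 for Ishikawa and of 0.258 for HEC-1A. Of 2250 genes that were 2-fold apart in the siControl pair, 1755 (78.0%) were also 2-fold apart the same way in the siEfp pair, 2244 had the same sign, and 0 were 2-fold apart the other way. Of 2317 genes 2-fold apart in the siEfp pair, the same 1755 made up 75.7%. At 4-fold in both pairs there were 385 genes higher in Ishikawa and 170 higher in HEC-1A cells, and at 16-fold there were 58 and 22. Fitted with limma over the 4 arrays with treatment as a block, 3124 genes (17.0%) were higher in Ishikawa and 3362 (18.3%) higher in HEC-1A cells at a Benjamini-Hochberg adjusted p under 0.05. All 1755 members were among them, with adjusted p-values up to 0.00663. This fit has 1 residual degree of freedom and uses the same values as the 2-fold count, so it is no separate support for the members. Arrays of one line are not labelled as replicates and may share a culture. With line and treatment in the model, the residual of a gene is the gap between its siControl and siEfp pair differences. That residual is moderated toward a spread shared by all genes. These p-values therefore do not measure the spread between replicate cultures of a line.

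**Figure D1:**
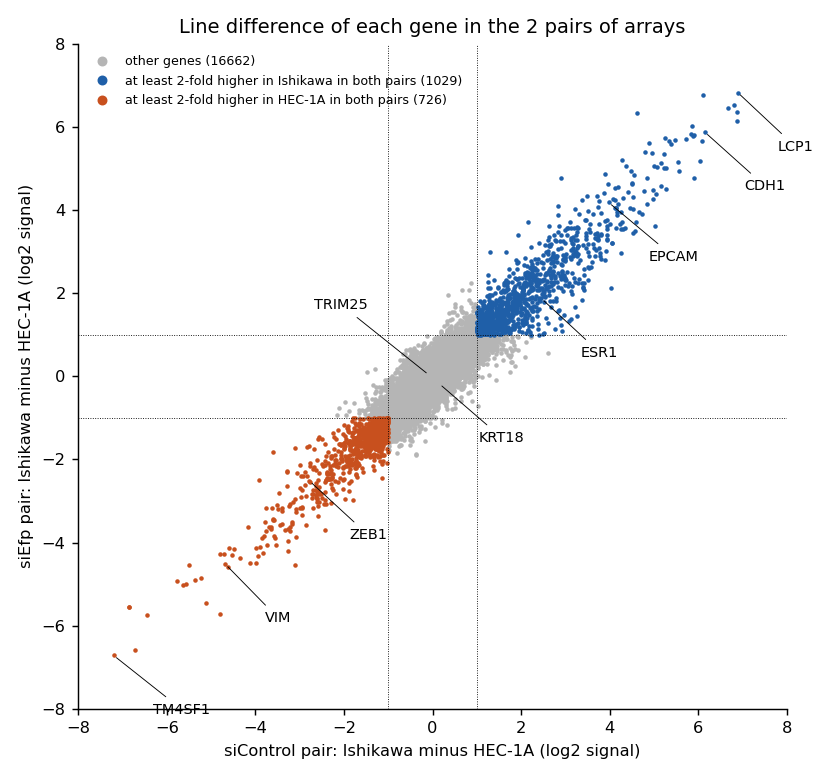
Ishikawa minus HEC-1A difference of each of 18417 genes in the siControl pair (x axis, log2 signal) and the siEfp pair (y axis, log2 signal), with dotted lines at 2-fold. Blue points are the 1029 genes at least 2-fold higher in Ishikawa in both pairs and orange points the 726 higher in HEC-1A; the points lie along the diagonal, with LCP1 and TM4SF1 at the ends and TRIM25 and KRT18 near the center.

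Members just inside the 2-fold threshold were ZNF284, TMCC3 and FAT1 for Ishikawa, whose smaller pair differences were 1.0002, 1.0008 and 1.0012, and CDC25A, MYC and SLC67A1-AS for HEC-1A, at -1.0013, -1.0015 and -1.0017. LGALS3, C2CD5 and POLK lay just outside in the Ishikawa direction, at 0.9985, 0.9977 and 0.9972, and FKBP10, YPEL2 and JHY in the HEC-1A direction, at -0.9999, -0.9998 and -0.9989. The median size of the difference over members was 1.69. In 700 of the 1029 Ishikawa-higher genes and 377 of the 726 HEC-1A-higher genes, the lower line was below the median signal on both of its arrays. A pattern close to present in one line and absent in the other, with signals at or above the median in one and in the lowest 25% in the other, was found for 100 genes in favor of Ishikawa and 28 in favor of HEC-1A.

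The genes furthest apart were ranked by the smaller of their pair differences, among genes at or above the median signal on both arrays of the higher line. In the Ishikawa direction the first was LCP1, an actin-bundling plastin best known from leukocytes, at 11.56 and 11.49 in Ishikawa and 4.66 and 4.66 in HEC-1A cells, 116-fold apart (adjusted p 3.05e-06). MAL2 and MAL, proteolipids of apical transport, were 102-fold and 57.4-fold higher in Ishikawa cells. SEMA3A, a secreted axon guidance factor, was at 10.24 and 10.26 against 3.57 and 3.81, and INA, a neuronal intermediate filament, was at 10.16 and 10.12 against 3.28 and 3.76. EYA4, a transcriptional coactivator, was 91.5-fold higher, and TMTC1, a mannosyltransferase, 86.9-fold. The rest of the 15 were CDH1, another cadherin gene, CDH6 (61.5-fold), the glutathione transferase gene GSTM3 (57.1-fold), the epithelial sodium channel gene SCNN1A (58.0-fold), the metal importer gene SLC39A8 (52.6-fold), the epithelial ETS factor gene EHF (58.6-fold), CMBL (47.9-fold) and POPDC1 (44.9-fold). For 8 of the 15 the HEC-1A signal was in the lowest 25% of all signals on at least 1 array, and for 4 in the lowest 10%, which ended at 3.46. GSTM3, EHF and INA were among the 4, with HEC-1A signals like those of PGR and PTPRC, so the size of these folds is uncertain. In each of the 15 the lower Ishikawa value lay above the higher HEC-1A value by more than 5 on the log2 scale. A wide gap was the basis of the choice and is not a separate result.

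In the HEC-1A direction the furthest gene was TM4SF1, a tetraspanin-like membrane protein gene, at 3.82 and 3.86 in Ishikawa and 11.03 and 10.58 in HEC-1A cells, 124-fold apart (adjusted p 3.36e-06). VCAN, a matrix proteoglycan, was at 4.01 and 4.17 against 10.72 and 10.77, and HAVCR1, a phosphatidylserine receptor, at 3.78 and 3.78 against 10.23 and 9.52. These transcripts were among the brighter ones in HEC-1A cells and near the low end in Ishikawa cells. NT5E, the ecto-nucleotidase CD73, was 39.0-fold higher, EREG, an EGF receptor ligand, 39.98-fold, TGM2, a protein cross-linking transglutaminase, 39.0-fold, and AXL, a receptor tyrosine kinase, 40.6-fold. EMP3, IER3, CDCA7L, ZNF655, CPNE8 and VIM completed the group, between 24.2-fold and 38.3-fold. For 6 of the 15 the Ishikawa signal was in the lowest 25% on at least 1 array, and the size of their folds is uncertain too. The histone genes H4C14 and H4C15 were 73.9-fold higher in HEC-1A cells, with identical values, since they are near-identical copies that probes cannot tell apart. IER3 was measured by 3 probe sets, of which 2 had identical values, and their differences lay between -5.12 and -5.001.

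**Figure D2:**
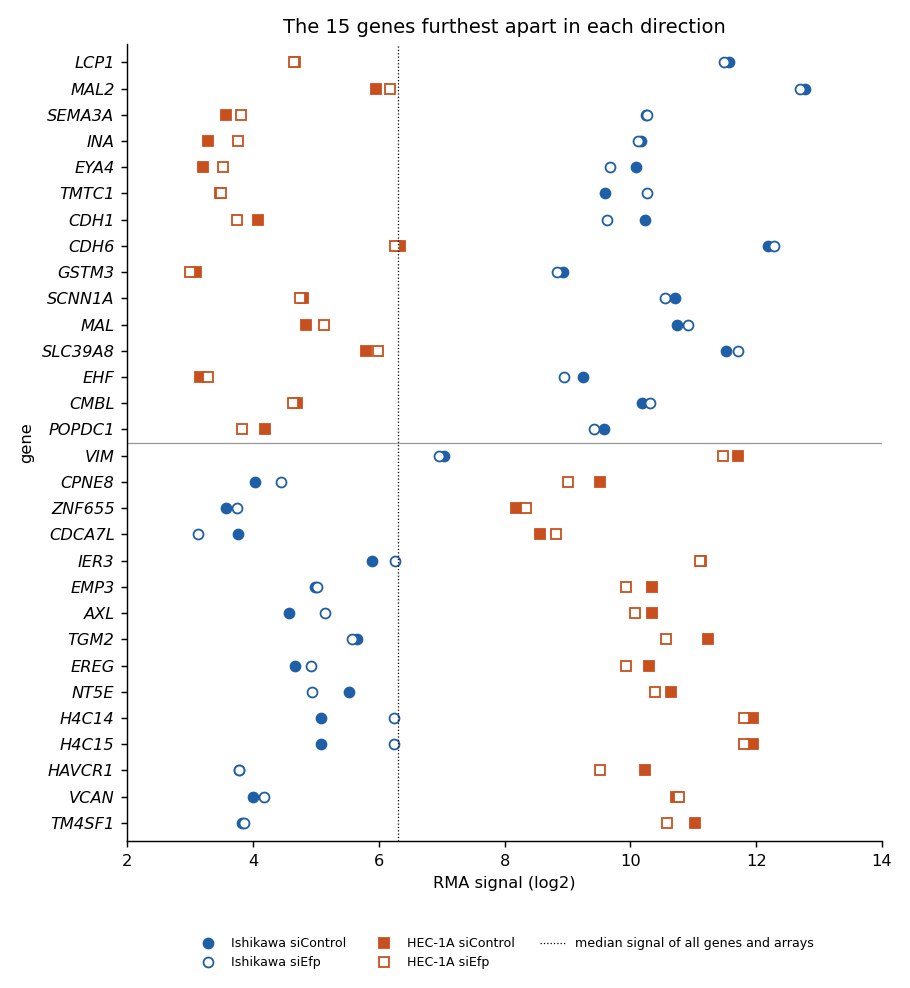
RMA signal (x axis, log2) of the 15 genes furthest apart in each direction (y axis), with Ishikawa arrays as blue circles and HEC-1A arrays as orange squares, filled for siControl and open for siEfp, and a dotted line at the median signal of 6.30. Above the grey line all Ishikawa values lie to the right of all HEC-1A values, as for LCP1, and below it the order is turned, as for TM4SF1. The genes were chosen by this separation.

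The list of epithelial junctions had the largest share of genes apart among the 37 lists. The lists were chosen with earlier results of these data known, so this rank and the shares are descriptions. Of 51 measured genes of junctions and polarity, 25 were higher in Ishikawa cells (49.0%, against 5.59% of all genes) and 1 was higher in HEC-1A cells (1.96%, against 3.94% of all genes). The median difference was 0.82, against -0.01 over all genes. The same shares of all genes are the background for the lists below. The group of adherens junction and polarity genes had 15 of 19 members higher in Ishikawa cells (78.9%) with a median of 1.87. This group also holds genes that are not junction components, such as the transcription factor gene GRHL2 and the protease gene ST14. The shares were lower for desmosomes (4 of 13, 30.8%), claudins (4 of 14, 28.6%) and gap junctions (2 of 5, 40%). Of the listed genes, 15 of 51 were below the median signal on all arrays.

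Among the adherens junction and polarity genes, GRHL2, a transcription factor that maintains epithelial junctions, was at 9.23 and 9.37 in Ishikawa and 4.002 and 4.36 in HEC-1A cells (adjusted p 3.94e-06). ST14, the membrane protease matriptase, was at 9.87 and 9.90 against 4.87 and 4.85. CDH3, which encodes P-cadherin, was at 9.82 and 9.62 against 4.86 and 4.24. All of these were low in HEC-1A cells together with CDH1. A further group, which includes members outside the rule for named genes that were chosen after their values were seen, followed the same order. PRSS8, a protease activated with matriptase, was at 9.98 and 10.37 against 5.10 and 4.74, PKP2, a desmosomal plakophilin, at 10.80 and 10.72 against 6.30 and 6.10, and CLDN7 at 10.80 and 10.92 against 6.32 and 5.96. JUP, shared by adherens junctions and desmosomes, stayed above the median in HEC-1A cells, at 8.20 and 8.28 against 10.53 and 10.22. The genes named here were thus lower in HEC-1A cells to unequal degrees, from near the low end for CDH1 and GRHL2 to well above the median for JUP.

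The exception was CLDN1, a tight junction claudin, at 10.55 and 9.52 in Ishikawa cells and 11.66 and 11.56 in HEC-1A cells. Its difference was -1.11 in the siControl pair and -2.04 in the siEfp pair (adjusted p 0.00197). Within the claudin family CLDN1 was higher in HEC-1A cells, while CLDN3, CLDN4, CLDN7 and CLDN16, listed here after their values were seen, were higher in Ishikawa cells. CLDN4 was at 8.39 and 7.93 against 6.11 and 5.48.

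**Figure D3:**
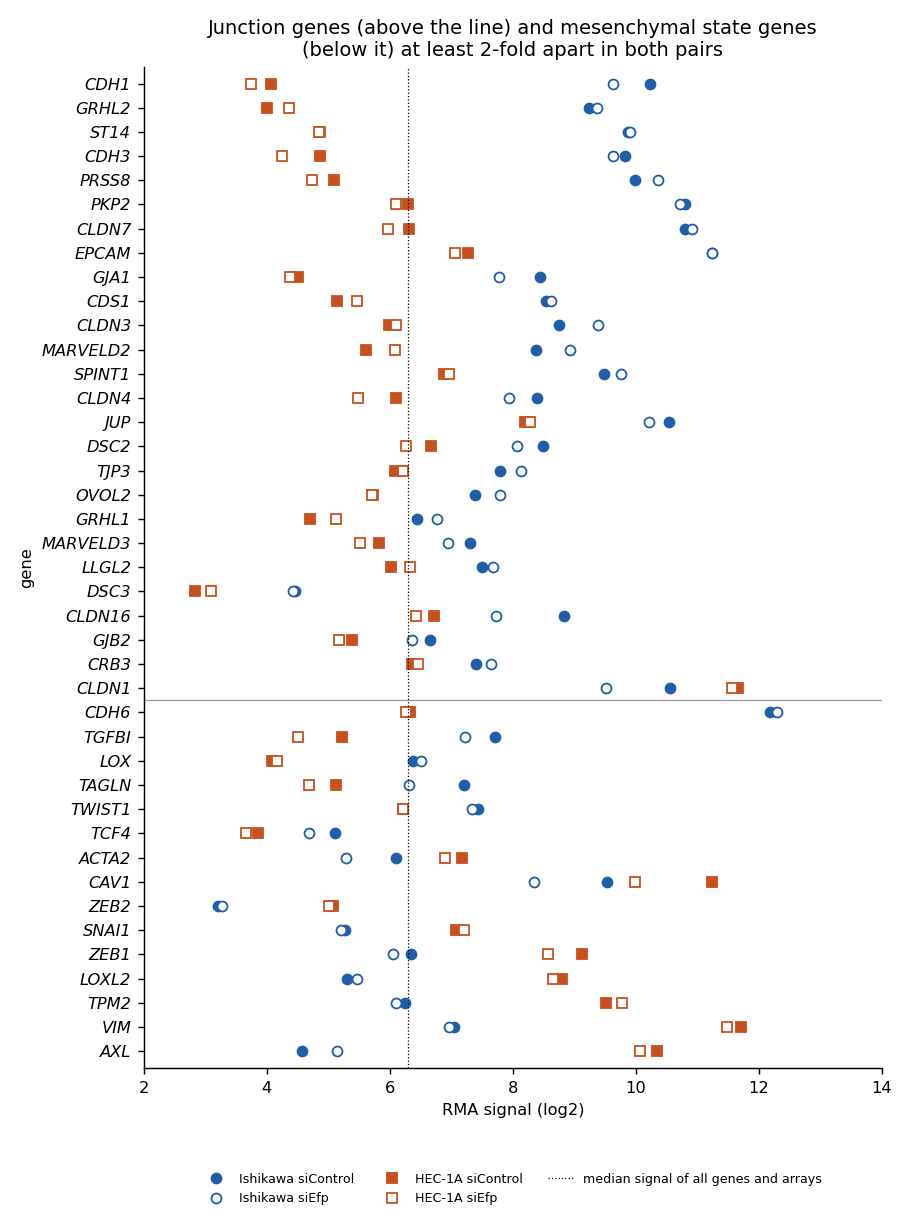
RMA signal (x axis, log2) on the 4 arrays of the 26 junction genes (above the grey line) and 15 mesenchymal state genes (below it) at least 2-fold apart in both pairs, with Ishikawa as blue circles, HEC-1A as orange squares, siControl filled, siEfp open and the median signal of 6.30 dotted. Of the junction genes, 25 have both Ishikawa values to the right and CLDN1 has them to the left; the mesenchymal genes are split, 6 to the right and 9 to the left.

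The promoters of junction genes were searched for the E-box hexamer CAGGTG and its reverse complement CACCTG, the form that ZEB and SNAI repressors are known to bind, in RefSeq windows of 250 bases before to 50 bases after the start of each gene (GRCh38.p14). Windows were at hand for 15 of the 25 junction genes higher in Ishikawa cells, and 5 of the 15 held the hexamer. CDH1 and ST14 were among the genes without a window, so the share does not cover them. Of all 27305 windows, 20.6% held it, as did 26.0% of 823 windows of Ishikawa-higher genes, 16.1% of 541 windows of HEC-1A-higher genes and 12 of 33 windows of all measured junction genes. The share was thus 33.3% for junction genes higher in Ishikawa cells and 36.4% for all measured junction genes. The 5 windows are shown as those that held the hexamer among the 15, so they were chosen by their values. Whether ZEB1 acts on these genes was not tested. They are CRB3 at chr19:6464021-6464320 on the plus strand, CDS1 at chr4:84582877-84583176 on the plus strand, CLDN3 at chr7:73770221-73770520 on the minus strand, DSC2 at chr18:31102372-31102671 on the minus strand and GJB2 at chr13:20192889-20193188 on the minus strand. Each is written from 5′ to 3′ on the strand of the gene, and capitals mark the hexamer on either strand.
CRB3: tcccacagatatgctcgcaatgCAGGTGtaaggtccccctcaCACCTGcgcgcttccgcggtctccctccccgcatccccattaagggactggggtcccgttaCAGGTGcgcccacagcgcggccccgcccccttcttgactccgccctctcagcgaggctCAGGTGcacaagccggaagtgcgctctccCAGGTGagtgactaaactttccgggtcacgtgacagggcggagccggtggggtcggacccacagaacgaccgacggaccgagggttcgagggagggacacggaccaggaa
CDS1: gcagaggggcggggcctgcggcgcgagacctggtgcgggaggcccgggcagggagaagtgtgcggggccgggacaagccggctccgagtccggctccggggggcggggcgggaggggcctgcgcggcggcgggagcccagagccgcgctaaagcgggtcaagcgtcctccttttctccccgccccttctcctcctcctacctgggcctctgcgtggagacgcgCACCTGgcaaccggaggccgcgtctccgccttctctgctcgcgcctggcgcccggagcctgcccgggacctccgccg
CLDN3: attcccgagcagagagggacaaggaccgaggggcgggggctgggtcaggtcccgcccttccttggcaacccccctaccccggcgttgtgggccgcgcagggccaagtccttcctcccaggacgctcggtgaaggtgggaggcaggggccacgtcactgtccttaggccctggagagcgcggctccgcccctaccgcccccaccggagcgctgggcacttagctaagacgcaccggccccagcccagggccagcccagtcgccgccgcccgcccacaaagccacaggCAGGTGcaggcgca
DSC2: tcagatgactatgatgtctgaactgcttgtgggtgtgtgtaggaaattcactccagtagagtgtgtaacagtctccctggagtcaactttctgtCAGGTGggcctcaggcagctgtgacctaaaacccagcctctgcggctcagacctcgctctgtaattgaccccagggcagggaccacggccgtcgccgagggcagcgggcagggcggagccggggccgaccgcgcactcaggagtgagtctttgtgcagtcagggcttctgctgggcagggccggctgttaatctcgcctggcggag
GJB2: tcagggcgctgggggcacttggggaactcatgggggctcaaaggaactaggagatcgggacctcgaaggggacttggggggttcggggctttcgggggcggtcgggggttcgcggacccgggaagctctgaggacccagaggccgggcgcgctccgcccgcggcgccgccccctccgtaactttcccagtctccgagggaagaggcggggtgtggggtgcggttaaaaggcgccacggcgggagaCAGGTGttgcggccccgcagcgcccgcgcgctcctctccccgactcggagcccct
Counted from the start of the gene, the hexamers of CRB3 began at -228, -208, -147, -89 and -60, that of CDS1 at -27, of DSC2 at -156, of GJB2 at -5 and of CLDN3 at 37. CRB3, a component of the apical polarity complex, thus held 5 of them, but its signals of 7.39 and 7.65 in Ishikawa and 6.36 and 6.45 in HEC-1A cells were among the least apart of the group. CDS1, a lipid synthase listed with this group, was further apart, at 8.53 and 8.62 against 5.14 and 5.47. A match is a description of the letters and not a bound site, and no test was made of the shares.

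Mesenchymal state genes did not move as one group. Of 30 measured genes, 9 were higher in HEC-1A cells (30.0%) and 6 in Ishikawa cells (20%), with a median of -0.17. Of the transcription factors, ZEB1 was at 6.34 and 6.06 in Ishikawa and 9.12 and 8.57 in HEC-1A cells, 6.27-fold apart (adjusted p 2.54e-05). ZEB2 was at 3.21 and 3.28 against 5.08 and 5.01, and SNAI1 at 5.27 and 5.21 against 7.08 and 7.20. The ZEB2 values are means of 2 probe sets, whose differences were -2.73 and -0.87, so that 1 of them alone did not reach 2-fold. TWIST1 went the other way, at 7.44 and 7.33 in Ishikawa and 6.22 and 6.21 in HEC-1A cells. TCF4, a basic helix-loop-helix factor like TWIST1, was at 5.11 and 4.68 against 3.85 and 3.66. Of the 10 factors 3 were thus higher in HEC-1A cells and 2 in Ishikawa cells, and 7 were below the median signal on all arrays, ZEB2 and TCF4 among them. Factors of all these families bind E-boxes.

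Among cytoskeletal and adhesion genes of the same list, VIM was at 7.04 and 6.95 in Ishikawa and 11.71 and 11.47 in HEC-1A cells (adjusted p 4.64e-06). AXL was at 4.58 and 5.15 against 10.34 and 10.07, TPM2, a tropomyosin, at 6.25 and 6.10 against 9.52 and 9.78, and LOXL2, a collagen cross-linking oxidase, at 5.31 and 5.46 against 8.80 and 8.64. In the Ishikawa direction CDH6 was at 12.18 and 12.29 against 6.33 and 6.26, TGFBI, a secreted matrix protein, was at 7.71 and 7.23 against 5.22 and 4.50, and LOX, another cross-linking oxidase, was at 6.37 and 6.51 against 4.09 and 4.17. CDH2, the gene of N-cadherin, was bright in both lines, at 10.35 and 10.74 in Ishikawa against 9.39 and 9.28 in HEC-1A cells, and missed the threshold in the siControl pair with a difference of 0.96. Ishikawa cells thus carried CDH1, CDH2, CDH3 and CDH6 transcripts at high signals, and HEC-1A cells carried CDH2 among these.

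Protocadherins, adhesion proteins that are best known from neurons, were higher in Ishikawa cells in 8 of 23 measured genes of a list that leaves out the alpha cluster (34.8%), and in HEC-1A cells in 0, with a median of 1.06. Counted over all 42 measured symbols that start with PCDH, alpha cluster and pseudogenes included, 20 were higher in Ishikawa cells (47.6%) and 0 in HEC-1A cells. The 20 include a run of 8 alpha cluster genes that share their constant exons and are not independent measurements. PCDH9 was at 9.41 and 9.39 in Ishikawa against 3.37 and 4.201 in HEC-1A cells, and PCDH7 at 7.97 and 7.82 against 4.08 and 4.08. PCDHB2 was at 8.67 and 8.93 against 5.54 and 5.88. Of the 23 listed genes, 15 were below the median signal on all arrays. Clustered protocadherins are similar in sequence, and the values of neighbours can share probes.

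Integrins and matrix genes were divided between the lines. Of 69 genes 9 were higher in Ishikawa cells (13.04%, against 5.59% of all genes) and 7 in HEC-1A cells (10.1%, against 3.94%). ITGB6, the epithelial β6 integrin, was at 9.26 and 8.53 in Ishikawa and 3.98 and 4.01 in HEC-1A cells. TNC, the matrix glycoprotein tenascin C, was at 9.74 and 8.88 against 4.68 and 4.50, and FBLN5, an elastic fiber protein, at 9.02 and 8.95 against 4.72 and 4.64. On the other side NID1, a basement membrane linker, was at 6.02 and 6.47 against 9.62 and 9.94, ITGA5, the fibronectin receptor chain, at 7.46 and 7.12 against 9.26 and 9.23, and SPP1, which encodes osteopontin, at 10.15 and 10.17 against 12.02 and 11.89. Of 17 integrin genes 2 were higher in Ishikawa (11.8%) and 4 in HEC-1A cells (23.5%). Of 22 collagens 1 was higher in Ishikawa cells (4.55%), below the share of all genes.

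Proteases and their inhibitors differed in count by role. Of 31 proteases 7 were higher in Ishikawa cells (22.6%, against 5.59% of all genes) and 2 in HEC-1A cells (6.45%, against 3.94%). Of 21 inhibitors and receptors 2 were higher in Ishikawa cells (9.52%) and 6 in HEC-1A cells (28.6%). The membrane protease TMPRSS4 was at 8.41 and 7.67 in Ishikawa and 4.06 and 4.09 in HEC-1A cells. In the HEC-1A direction were PLAU, the urokinase gene, at 7.63 and 5.93 against 10.07 and 9.62, and PLAUR, its receptor, at 6.05 and 5.92 against 9.75 and 9.55. Urokinase and its receptor were thus both higher in HEC-1A cells. TFPI, an inhibitor of coagulation, was at 3.43 and 3.49 against 7.93 and 7.64, and TIMP1, an inhibitor of matrix metalloproteinases, at 10.05 and 9.62 against 12.58 and 12.45.

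Steroid receptors and their coregulators were higher in Ishikawa cells in 5 of 14 measured genes (35.7%) and in HEC-1A cells in 0, with a median of 0.43. Of the 14 genes, 6 were below the median signal on all arrays. ESR1 was at 6.91 and 6.65 in Ishikawa and 4.45 and 4.77 in HEC-1A cells, 4.49-fold apart (adjusted p 0.000154). It was measured by a pair of probe sets that disagreed in size. One had signals of 8.58 and 8.22 in Ishikawa and 4.32 and 5.02 in HEC-1A cells, a difference of 3.74, and the other had 5.24 and 5.08 against 4.59 and 4.53, a difference of 0.60. Both probe sets were higher in Ishikawa cells, and the size depends on which is read. PGR, the progesterone receptor gene and a target of estrogen, was between 3.22 and 3.26 on all 4 arrays, near the low end of the signals.

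Other receptors also separated the lines. NR3C1, the glucocorticoid receptor gene, was at 6.66 and 6.55 in Ishikawa against 3.47 and 3.65 in HEC-1A cells (adjusted p 1.55e-05), and NR3C2, the mineralocorticoid receptor gene, was at 5.85 and 5.68 against 4.77 and 4.37. NR3C2 was thus below the median signal on all arrays. FOXA1, a pioneer factor for ESR1, was at 8.03 and 7.85 against 6.70 and 6.57, and the coactivator gene NCOA1 at 7.86 and 8.10 against 6.57 and 6.73. Of 37 estrogen-responsive genes, 7 were higher in Ishikawa cells (18.9%) and 1 in HEC-1A cells, with a median of 0.38, and 20 were below the median signal on all arrays. They included SCGB2A1, a secretoglobin, at 9.27 and 10.01 against 5.37 and 5.13, and TPD52L1 at 10.47 and 10.80 against 7.21 and 7.21. The member higher in HEC-1A cells was SLC26A2, a sulfate transporter, at 9.41 and 8.81 against 10.68 and 10.05.

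Transcription factors of the Müllerian tract and endometrium were divided, with 6 of 24 higher in Ishikawa cells (25%) and 4 higher in HEC-1A cells (16.7%). EHF was at 9.25 and 8.94 in Ishikawa against 3.16 and 3.29 in HEC-1A cells, and ELF3, an ETS factor of epithelia too, at 8.19 and 7.72 against 5.56 and 5.17. EMX2, a homeobox factor of the urogenital tract, was at 8.57 and 9.07 against 4.38 and 4.51, and SOX17, a factor of the endometrial gland, at 9.34 and 9.46 against 7.19 and 6.94. EHF, ELF3 and EMX2 were thus above the median on both Ishikawa arrays and below it on both HEC-1A arrays. SOX9 was higher in HEC-1A cells, at 8.53 and 7.94 against 6.75 and 6.70, and so were GATA2, at 7.71 and 8.13 against 6.41 and 6.57, GATA6 and PAX2. Of 27 measured HOX genes 2 were higher in Ishikawa cells (7.41%, against 5.59% of all genes) and 2 in HEC-1A cells (7.41%, against 3.94%). HOXA2 was at 4.03 and 4.42 in Ishikawa against 7.43 and 7.98 in HEC-1A cells, and HOXB2 at 5.09 and 5.10 against 7.13 and 7.14, whereas HOXB8 was at 7.85 and 7.85 against 5.87 and 6.30 and HOXB5 was higher in Ishikawa cells as well. Of 11 HOXA genes in the list, 1 was analysed here.

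**Figure D4:**
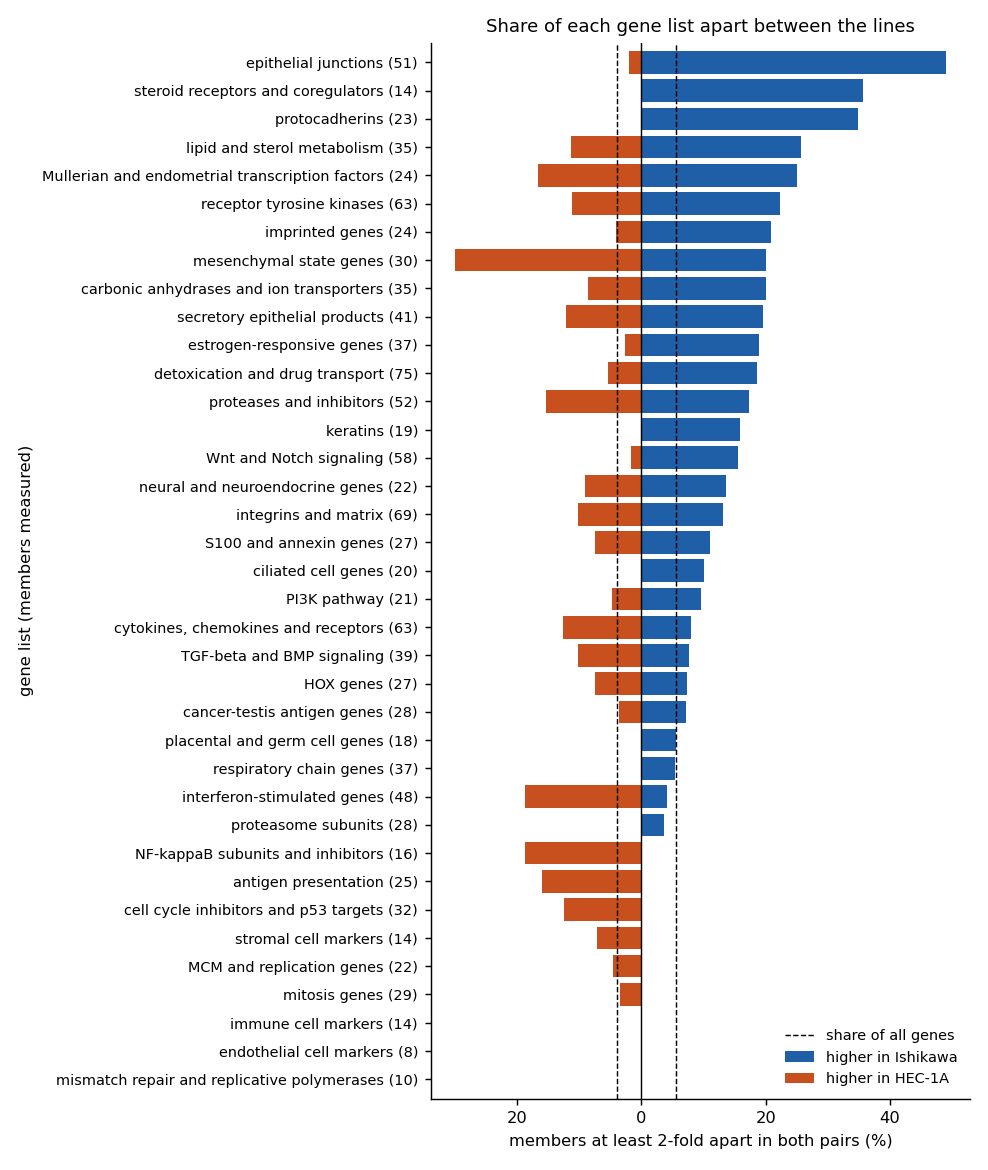
Share of the measured members of 37 gene lists (y axis, number of measured members in parentheses) that were at least 2-fold apart in both pairs (x axis, %), higher in Ishikawa to the right in blue and higher in HEC-1A to the left in orange, with dashed lines at the shares of all genes, 5.59% and 3.94%. Epithelial junctions reach 49.0% to the right and mesenchymal state genes 30.0% to the left. Mismatch repair, endothelial and immune lists have no member apart. The lists were chosen with earlier results of these data known.

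Growth factor receptors and ligands differed in both directions. Of 63 measured genes 14 were higher in Ishikawa cells (22.2%, against 5.59% of all genes) and 7 in HEC-1A cells (11.1%, against 3.94%). The ligand NRG4 was at 9.47 and 9.45 in Ishikawa against 4.31 and 4.87 in HEC-1A cells, and ERBB3, the neuregulin receptor that pairs with ERBB2, was at 7.14 and 6.69 against 4.80 and 4.42. EREG, a ligand of EGFR, was at 4.66 and 4.91 against 10.29 and 9.93. Members of the ERBB ligand and receptor family were thus higher in one line or the other. Besides AXL, its relative MERTK was higher in HEC-1A cells, at 8.88 and 8.89 against 6.18 and 6.06, as was ROR1, an orphan receptor of Wnt signaling, at 8.51 and 8.08 against 5.63 and 5.48.

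Wnt and Notch genes were mostly higher in Ishikawa cells where they differed, in 9 of 58 genes (15.5%) against 1 in HEC-1A cells (1.72%). The ligands WNT7A and WNT5A were at 9.03 and 8.27 against 5.33 and 5.24 and at 7.52 and 7.07 against 3.72 and 4.24. NOTCH3 was at 8.08 and 8.39 against 5.76 and 5.84, and RNF43, which removes Wnt receptors from the membrane, at 6.56 and 7.08 against 4.60 and 4.71. TCF7L2, the nuclear partner of β-catenin, was the exception, at 6.57 and 6.61 in Ishikawa and 9.20 and 9.34 in HEC-1A cells. In the TGF-β and BMP list, 3 of 39 were higher in Ishikawa cells (7.69%, against 5.59% of all genes) and 4 in HEC-1A cells (10.3%, against 3.94%), with a median of -0.05. TGFB2 was at 8.35 and 7.64 against 4.76 and 4.99, and GREM1, a BMP antagonist, at 7.38 and 7.31 against 5.02 and 4.96. ID3 and ID2, targets of BMP signaling that inhibit basic helix-loop-helix factors, were higher in HEC-1A cells, at 9.58 and 9.52 against 5.66 and 7.03 and at 10.21 and 10.73 against 7.52 and 8.55, and BMP4 was higher there too, at 6.55 and 6.47 against 4.90 and 4.62.

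Genes of antigen presentation and of the interferon response were more often higher in HEC-1A cells. For antigen presentation, 4 of 25 measured genes were higher in HEC-1A cells (16%, against 3.94% of all genes) and 0 in Ishikawa cells, with a median of -0.35. All 4 belong to the class I route. TAP1 and TAP2, which carry peptides into the endoplasmic reticulum, were at 4.73 and 4.58 against 7.82 and 7.83 and at 4.63 and 4.68 against 7.01 and 7.04. TAPBP, which links them to class I molecules, was at 7.31 and 7.23 against 9.93 and 9.86, and ERAP2, a peptide trimming protease, at 3.03 and 3.23 against 4.36 and 4.67. The peptide transporter genes were thus below the median in Ishikawa cells and above it in HEC-1A cells. Of the 25 genes, 14 were below the median signal on all arrays, ERAP2 among them. The classical class I heavy chain genes were not analysed here.

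Among 48 interferon-stimulated genes, 9 were higher in HEC-1A cells (18.8%, against 3.94% of all genes) and 2 in Ishikawa cells (4.17%, against 5.59%). Their median was -0.15, and 33 were below the median signal on all arrays. PARP14, a mono-ADP-ribosyltransferase, was at 3.28 and 3.39 in Ishikawa and 7.44 and 7.01 in HEC-1A cells. IFITM1 and IFITM3, membrane proteins that block viral entry, were at 6.01 and 5.19 against 9.13 and 9.72 and at 6.89 and 6.95 against 10.13 and 10.06. OAS3, an oligoadenylate synthetase, was at 4.81 and 4.89 against 8.09 and 7.53. The order was turned for USP18, a protease that removes ISG15, at 8.35 and 8.69 in Ishikawa against 5.85 and 6.09 in HEC-1A cells, and for IFIT1, at 6.58 and 6.70 against 5.32 and 5.30. The interferon list therefore held members in both directions.

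Of 16 NF-κB subunits and inhibitors 3 were higher in HEC-1A cells (18.8%, against 3.94% of all genes) and 0 in Ishikawa cells, with a median of -0.61. NFKB2 was at 6.52 and 6.67 in Ishikawa and 8.58 and 8.67 in HEC-1A cells, NFKBIA, the inhibitor that NF-κB induces, at 8.69 and 8.24 against 10.13 and 9.96, and the kinase gene IKBKB at 7.03 and 6.69 against 8.10 and 8.04. By limma, 10 of the 16 were higher in HEC-1A cells (18.3% of all genes were) and 0 in Ishikawa cells. IL18, a cytokine of the interleukin 1 family, was at 5.998 and 4.45 in Ishikawa against 7.597 and 6.66 in HEC-1A cells, a member. IL6ST, a receptor chain shared by cytokines of the interleukin 6 family, was at 9.29 and 7.66 against 10.22 and 9.21 and missed the threshold in the siControl pair with a difference of -0.92. In the list of cytokines and receptors, 5 of 63 were higher in Ishikawa cells (7.94%, against 5.59% of all genes) and 8 in HEC-1A cells (12.7%, against 3.94%). IL1R2, a decoy receptor, led in the Ishikawa direction, at 9.55 and 8.90 against 5.36 and 4.75. IL4R led in the HEC-1A direction, at 8.13 and 8.27 in HEC-1A against 5.87 and 5.85 in Ishikawa cells.

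In lipid and sterol metabolism, 9 of 35 were higher in Ishikawa (25.7%) and 4 in HEC-1A cells (11.4%), with a median of 0.66. SQLE, the squalene epoxidase of cholesterol synthesis, was at 9.48 and 9.38 in Ishikawa and 4.21 and 4.37 in HEC-1A cells, 35.2-fold apart (adjusted p 4.04e-06). ELOVL7, a fatty acid elongase, was at 9.76 and 10.51 against 6.45 and 6.61, and FADS2, a desaturase, at 10.74 and 10.69 against 7.95 and 7.80. SQLE was the only one of these below the median on both HEC-1A arrays with signals in the lowest 25%. LIPH, a phospholipase, was the furthest in the other direction, at 3.70 and 3.42 against 7.69 and 7.91. Of 75 genes of detoxication and drug transport 14 were higher in Ishikawa cells (18.7%) and 4 in HEC-1A cells (5.33%), with a median of 0.11. The roles differed in count. Of 16 cytochrome P450 genes 2 were higher in each line (12.5% each, against 5.59% and 3.94% of all genes). Of 12 ABC transporters 0 were higher in Ishikawa cells and 2 in HEC-1A cells (16.7%), ABCC3 and ABCG2. Of 23 genes of conjugation reactions, 9 were higher in Ishikawa cells (39.1%) and 0 in HEC-1A cells, with a median of 0.88. GSTM3 was at 8.92 and 8.84 against 3.09 and 2.996 and GSTT1 at 8.69 and 8.73 against 5.21 and 4.96. GPX3, a secreted glutathione peroxidase, was at 9.29 and 9.36 against 5.16 and 4.83. GST genes have similar sequences, so their probe sets are uncertain as single genes.

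Of 22 neural and neuroendocrine genes, 3 were higher in Ishikawa cells (13.6%, against 5.59% of all genes) and 2 in HEC-1A cells (9.09%, against 3.94%). CNTN1, a neural adhesion molecule, was at 5.55 and 6.25 against 2.83 and 3.27, and CALB2, the calcium-binding protein calretinin, at 4.92 and 4.26 against 7.87 and 7.59. L1CAM, another neural adhesion molecule, was at 5.78 and 5.41 against 8.28 and 7.53.

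Secretory products of the gland also differed in both directions. Of 41 genes 8 were higher in Ishikawa cells (19.5%) and 5 in HEC-1A cells (12.2%), and 30 were below the median on all arrays. LCN2, an iron-siderophore binding lipocalin, was at 8.08 and 7.81 in Ishikawa against 5.08 and 4.96 in HEC-1A cells, and WFDC2, a protease inhibitor family member, at 8.05 and 8.11 against 6.04 and 6.09. CLU, a secreted chaperone, was at 6.98 and 6.86 against 10.62 and 10.49, and LIF, a cytokine of implantation, at 4.71 and 4.52 against 7.27 and 6.84. Of ion transport genes, SCNN1A was at 10.70 and 10.55 against 4.80 and 4.74 and the phosphate transporter gene SLC34A2 at 10.06 and 9.83 against 4.72 and 4.15.

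Proliferation and housekeeping lists had shares of genes apart by 2-fold that were near or below those of all genes. Of 29 mitosis genes 1 was higher in HEC-1A cells (NDC80, 3.45%) and of 22 replication genes 1 (TYMS, 4.55%), against 3.94% of all genes. Of 28 proteasome subunits 1 was higher in Ishikawa cells (PSMB5, 3.57%) and of 37 respiratory chain genes 2 (NDUFS7 and NDUFA9, 5.41%), against 5.59% of all genes. By limma, which has no fold threshold, 17.0% of all genes were higher in Ishikawa and 18.3% higher in HEC-1A cells. Of the 37 respiratory chain genes it called 16 higher in Ishikawa and 1 higher in HEC-1A cells, and of the 28 proteasome subunits 8 and 0. Of the 22 replication genes it called 0 higher in Ishikawa and 9 higher in HEC-1A cells, and of the 29 mitosis genes 3 and 10. Of 10 mismatch repair and polymerase genes 0 were apart by 2-fold. Limma called 3 of them higher in Ishikawa and 2 higher in HEC-1A cells, beside the same shares of all genes. MSH3 was at 9.3998 and 9.11 in Ishikawa and 8.43 and 8.47 in HEC-1A cells. No mitosis, replication or proteasome gene was below the median signal on all arrays. Cell cycle inhibitors and p53 targets had 4 of 32 higher in HEC-1A cells (12.5%) and 0 in Ishikawa cells, and a median of -0.01. RB1, the cell cycle inhibitor, was at 7.48 and 7.53 against 9.19 and 9.09, and PMAIP1, a p53 target that promotes apoptosis, at 6.64 and 5.54 against 8.74 and 7.98. The others were GDF15, a secreted stress cytokine, and TNFRSF10B, a death receptor.

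The line difference was not of the same size in both pairs for every member. The median gap between the pair differences was 0.24 over members and 0.19 over all genes, and 65 of the 1755 members had a gap above 1. The genes of this paragraph were partly chosen after their values were seen. DIRAS3, an imprinted small GTPase, was at 7.52 in Ishikawa siControl and 9.22 in Ishikawa siEfp cells against 4.61 and 4.46 in HEC-1A cells, so that its difference was 2.91 in one pair and 4.76 in the other. IGFBP5, an IGF-binding protein, had the widest gap of all members, 1.91, with 8.04 and 6.46 in Ishikawa against 4.01 and 4.34 in HEC-1A cells. KIT was at 6.57 and 4.53 against 3.60 and 3.06, and BDNF, a neurotrophin, at 3.50 and 4.06 against 7.10 and 5.89. In DIRAS3 and IGFBP5 the Ishikawa arrays moved more between treatments than the HEC-1A arrays, and in BDNF the HEC-1A arrays moved more. With 1 array per condition, whether these gaps differ from 0 was not tested.

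MicroRNA genes were rarely apart. The members here were chosen after their values were seen. Of 164 miRNA genes measured, 0 were at least 2-fold higher in Ishikawa and 5 higher in HEC-1A cells (3.05%, against 3.94% of all genes), and 148 were below the median signal on all arrays. The probe sets lie in the hairpin genes and do not measure mature miRNA. The mature sequences of the 5 genes that RefSeq holds (GRCh38.p14) are shown with the seed, bases 2 to 8, in capitals, since the seed sets which targets a miRNA pairs with, and no seed was shared between the genes.
hsa-miR-31-5p: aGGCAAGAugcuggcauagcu
hsa-miR-21-5p: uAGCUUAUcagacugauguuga
hsa-miR-221-3p: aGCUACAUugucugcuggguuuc
hsa-let-7i-5p: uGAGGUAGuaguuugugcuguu
hsa-let-7i-3p: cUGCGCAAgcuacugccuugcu
hsa-miR-186-3p: gCCCAAAGgugaauuuuuuggg
MIR21 was at 6.395 and 5.36 in Ishikawa and 7.54 and 7.80 in HEC-1A cells, MIR31 at 4.43 and 4.50 against 5.56 and 6.402, and MIR221 at 5.37 and 5.49 against 6.41 and 6.55. MIRLET7I was at 6.11 and 5.87 against 7.22 and 6.95 and MIR186 at 4.55 and 4.15 against 5.64 and 5.45. MIR31HG, the long noncoding host of MIR31, was further apart, at 3.70 and 3.83 against 7.45 and 7.88. MIR200C, of the family that represses ZEB1 and ZEB2, was at 4.88 and 5.30 in Ishikawa against 3.94 and 4.198 in HEC-1A cells, and missed 2-fold in the siControl pair with a difference of 0.93.

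The members were unevenly spread over chromosomes, a comparison chosen after values had been seen. RefSeq placed 18365 of the genes. Chromosome 4 had 101 of 709 genes higher in Ishikawa cells (14.2%) and 9 higher in HEC-1A cells (1.27%). Among its 372 genes at or above the median signal on at least 1 array, the median difference was 0.51, with 0.53 in the siControl pair and 0.49 in the siEfp pair, against -0.05 over all 10226 such genes, and 82.5% of them had a positive difference against 46.3%. Chromosome 14 had 50 of 588 genes higher in Ishikawa cells (8.50%) and 12 in HEC-1A cells (2.04%), with a median of 0.35 over its 323 brighter genes. Chromosome 20 was the reverse, with 12 of 535 genes higher in Ishikawa cells (2.24%) and 36 in HEC-1A cells (6.73%) and a median of -0.36 over 284 brighter genes. A gene could pass this filter through a high signal in 1 line alone. Without the filter the medians were smaller in size, at 0.21 for chromosome 4, 0.12 for chromosome 14 and -0.12 for chromosome 20. The median over all placed genes was -0.01. The genes that the filter left out were low in both lines and so had less room to differ. The larger medians with the filter are therefore not a separate result. The medians also include the members. Genes of a chromosome are not independent of each other, and no test was made.

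**Figure D5:**
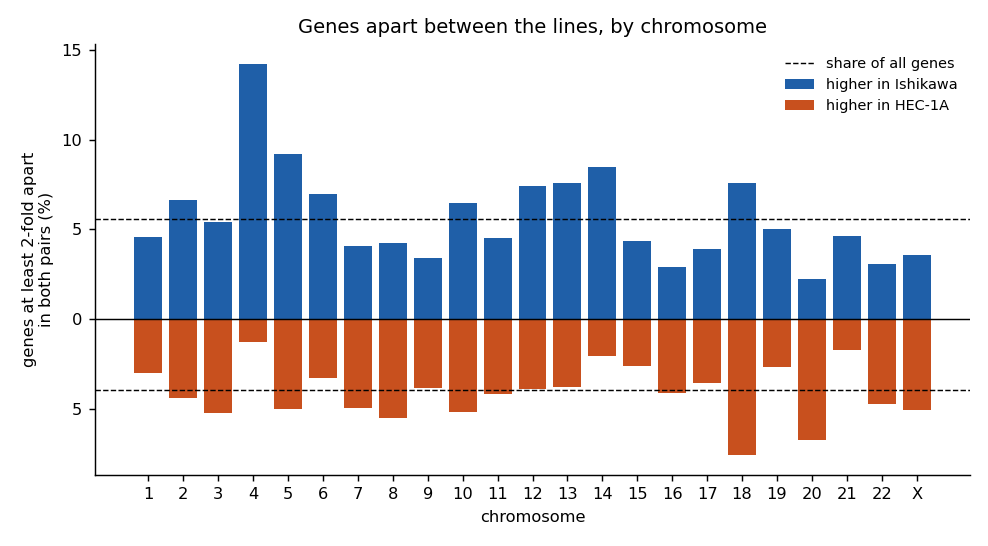
Share of the measured genes of each chromosome (x axis) at least 2-fold apart in both pairs (y axis, %), higher in Ishikawa upward in blue and higher in HEC-1A downward in orange, with dashed lines at the shares of all genes. Chromosome 4 stands at 14.2% upward and 1.27% downward, and chromosome 20 at 2.24% upward and 6.73% downward.

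Neighbouring members formed 21 runs of at least 3 adjacent measured genes that were apart in the same direction, 14 higher in Ishikawa cells and 7 higher in HEC-1A cells. The longest, of 8 genes, held PCDHA2 to PCDHA8 and PCDHA10, which share their constant exons, so these are not independent measurements. On chromosome 3, 5 adjacent genes were higher in HEC-1A cells. Of these, TM4SF18 was at 5.02 and 4.59 in Ishikawa and 9.83 and 8.86 in HEC-1A cells, TM4SF1 as given above, and TM4SF4 at 3.49 and 3.73 against 7.24 and 6.89, with CP, a copper-binding ferroxidase, and WWTR1, a coactivator of the Hippo pathway, at the sides. On chromosome 4 a run of 5 genes, RBM47, NSUN7, APBB2, UCHL1 and LIMCH1, was higher in Ishikawa cells by 1.56 to 2.01 on average. A run on chromosome 19 held the antisense gene ZNF667-AS1, at 8.64 and 8.99 in Ishikawa and 3.42 and 3.63 in HEC-1A cells, with the zinc finger genes ZNF471, ZFP28 and ZNF470. On chromosome 5 the vault RNA genes VTRNA1-1, VTRNA1-2 and VTRNA1-3 were higher in HEC-1A cells, the second at 3.12 and 3.44 against 7.71 and 7.57. These small RNAs are similar in sequence and uncertain as single genes.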

How the data were processed

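Total RNA of Ishikawa and HEC-1A cells was measured on 4 Affymetrix arrays. The authors summarised the scans by RMA in Affymetrix Expression Console, per the submitters' processing notes, and deposited log2 signals, for which tool versions and a genome build are not stated. The paper names an exon array, while the deposited probe set numbers are those of a gene-level array. Of 33297 probe sets, 19460 had 1 gene symbol and were averaged into 18417 genes; 1754 with several symbols and 12083 with none were left out. Values were used as deposited. A member differed by at least 2-fold in both pairs. Of the members, 55 had more than 1 probe set, and in all 55 the probe sets had the same direction. In 39 of them every probe set was at least 2-fold apart in the mean of the pairs. The line term was also fitted across all genes with limma 3.58.1 (R 4.3.3), with treatment as a block and Benjamini-Hochberg adjustment, after a test on simulated data. Other steps ran in Python 3.11.15 with pandas 2.3.3, numpy 2.4.6 and scipy 1.17.1, and plots were drawn with matplotlib 3.10.9. Named genes were the 15 furthest apart each way, up to 4 called members at each end of a list, lists of up to 12 genes, and fixed markers with ESR1, PGR, TRIM25, IL6ST, IL18 and SFN. The members and lists were chosen with earlier results of these data known. Alternatives were a second quantile normalization, the brightest probe set per gene, centred pairs, a filter on low signals, other thresholds, each pair alone, an intensity trend and no treatment block.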

Additional observations from a re-analysis of the deposited data

Results flagged for a closer look

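In 8 of the named genes the line difference had opposite signs in the siControl and siEfp pairs, and whether the pairs differ was not tested. The difference in the siControl pair minus that in the siEfp pair was -0.47 for KDR, -0.36 for CLDN5, -0.23 for CDH5 and 0.17 for ESAM, all endothelial markers with low signals. It was 0.32 for KRT18, 0.39 for the mismatch repair gene MLH3, 0.11 for SFN and -0.11 for TRIM25. None of the 8 reached 2-fold in either pair.

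Probe sets with several symbols or none were outside the comparison by gene. Of these 13837 probe sets, 209 (1.51%) were at least 2-fold higher in Ishikawa cells in both pairs and 202 (1.46%) were higher in HEC-1A cells.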

How the results depend on the processing

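The count of members depended most on the fold required. At 1.5-fold in both pairs 1926 genes were higher in Ishikawa cells and 1803 were higher in HEC-1A cells, whereas at 4-fold 385 and 170 were. Under the other alternatives the counts stayed within 1.5 times those reported, from 874 with the filter on low signals to 1331 with the siControl pair alone for Ishikawa, and from 637 with the filter to 1082 with the siEfp pair alone for HEC-1A. By limma, requiring also a fitted difference of at least 2-fold left 1264 genes higher in Ishikawa cells and 948 higher in HEC-1A cells, and an adjusted p under 0.01 left 2107 and 2016. Without the treatment block 2559 and 2597 passed. Among genes at or above the median signal on an array, 81.6% of those 2-fold apart in the siControl pair were so in the siEfp pair. Of 206 named genes, 181 of them members, 0 members changed direction under an alternative, and the 9 genes that changed sign had differences of at most 0.139 in size. Of 37 list medians 13 changed sign, all at most 0.0986 in size, and the filter left no endothelial marker to compute one. The arrays were paired by treatment throughout, since they carry no replicate numbers. Leaving out an array of a line leaves 1 pair, which the values for each pair alone give.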

Other observations

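Some further values are given without a test of their own and were chosen after the values were seen. UBB, a polyubiquitin gene, was at 11.89 and 11.96 in Ishikawa and 7.08 and 6.55 in HEC-1A cells, 34.5-fold apart. UBB has near-identical copies in the genome, so its probe set is uncertain as a measure of a single gene. RAB25, a small GTPase of epithelial membrane traffic, was at 9.07 and 8.89 in Ishikawa and 3.90 and 3.75 in HEC-1A cells. GPNMB, a membrane glycoprotein, was at 9.83 and 11.01 against 5.21 and 4.66, so that its difference was 4.61 in the siControl pair and 6.34 in the siEfp pair.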
